A study of Mus musculus with 115 samples.

Results

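The liver response to estradiol was described in mice of the testis line, that is, mice carrying an autosomal transgene of the testis-determining gene Sry. The members were chosen by the labels alone: liver arrays of the genotypes XXSry and XY-Sry with an estradiol capsule (E) or a blank capsule (B), which gave 20 of the 115 arrays of the series. The mice were of the FCG model on the C57BL/6J background, in which Sry is missing from the Y chromosome (written Y-) and is supplied by the transgene, so that XXSry mice have testes with an XX complement and XY-Sry mice have testes with an XY- complement. Mice were gonadectomised at 75 days and received a Silastic capsule at once, holding adhesive only in the blank groups and 50 µg of estradiol in the estradiol groups, and liver was taken 3 weeks later. Each of the 4 groups (XXSry B, XXSry E, XY-Sry B and XY-Sry E) held 5 arrays, so that all mice compared here had developed with testes, carried the transgene and had no gonads during the treatment. The ovary line (XX and XY- mice without the transgene, 20 liver arrays with E or B) and the testis-line arrays with a testosterone capsule (T, 5 mM in the capsule, 10 arrays) were used only for comparison.

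Estradiol acts in liver mainly through estrogen receptor alpha, encoded by Esr1, a ligand-activated transcription factor that hepatocytes express in both sexes. It also acts from outside the liver by changing the pattern in which the pituitary releases growth hormone. That pattern sets, through the kinase JAK2 and the factor STAT5B, most of the genes that mouse liver expresses at different levels in males and females. A continuous, female-like pattern keeps up genes such as A1bg, Cyp17a1 and Sult3a1, and a pulsed, male-like pattern keeps up Hsd3b5 and the major urinary proteins.

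Signals below are log2 values after normalisation, and differences are estradiol minus blank with the 2 genotypes weighted equally, ± the standard error (SE) of the fit. A probe was called when its adjusted p was under 0.05 (limma, Benjamini-Hochberg over 11317 tested probes). The 20 arrays detected 33.3% to 40.6% of the 25697 probes, had median raw signals of 126 to 159, and correlated with each other at 0.957 to 0.986 over the tested probes. All 13 tested probes of the hepatocyte marker list were detected in every array, and the labelled sex chromosomes were borne out: Xist, the RNA that silences an X chromosome, ranged from 6.24 to 7.47 in XXSry and from 4.49 to 5.75 in XY-Sry, and the Y-linked Eif2s3y from 4.35 to 4.96 and from 7.14 to 8.07. The labels do not say that each array came from a separate mouse, so the p-values measure the spread between these samples, which may be technical in part. Outside these 20 arrays, 2 liver arrays went against their labels. XY-Sry T replicate 5 had Eif2s3y at 4.53 where the other arrays of its group had 6.84 to 8.14, and XY- E replicate 5 had the female-biased Cyp2b9 at 8.31 where its group had 11.34 to 13.45 and the male-biased Hsd3b5 at 12.26 where its group had 4.50 to 7.50. Neither array is among the 20, and the counts and line comparisons that rest on them are given with and without them.

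Estradiol raised more transcripts than it lowered in testis-line liver under quantile normalisation, and the leading ones changed by several fold. Of the tested probes 201 were called (1.78%), 130 higher (1.15%) and 71 lower (0.627%), and they name 177 genes. Among them 42 rose (0.371%) and 12 fell (0.106%) at least 2-fold. The median called increase was 0.82 and the median called decrease -0.74, against a median of -0.01 over all tested probes. In 27 probes every estradiol array lay above every blank array (0.239% of those tested) and in 21 every one lay below (0.186%), and 24 and 17 of these were called. Under median centring, which shifted the median of all probes to -0.12, 76 probes were called and 46.1% of them were higher, against 64.7% under quantile normalisation. Slide was taken from the number that opens each array's title, which no label or header names as a slide. By that number, estradiol and blank arrays shared only 2 of 8 slides (4 arrays of each treatment). With slide as a fixed block 381 probes were called and with slide as a random block 322, of which 177 and 197 were among the 201.

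**Figure D1:**
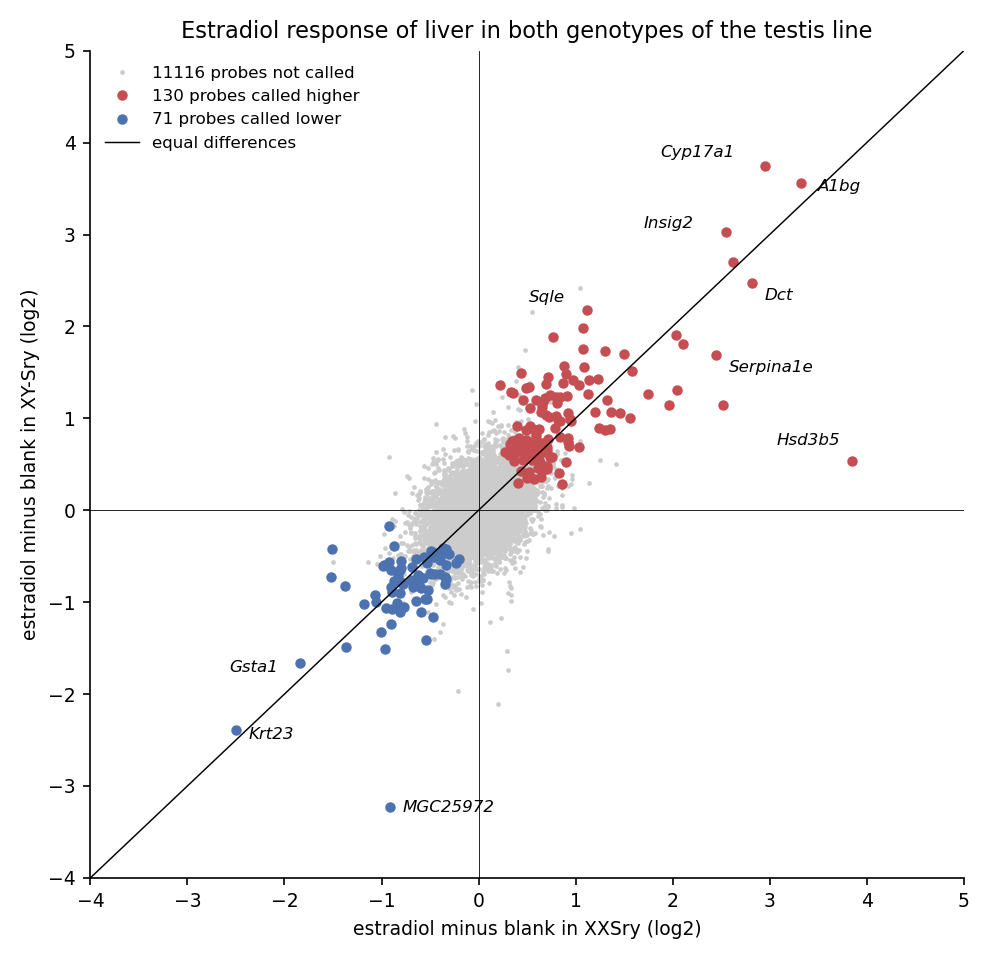
Estradiol minus blank (log2) of each of the 11317 tested probes in XXSry liver (x axis) and in XY-Sry liver (y axis), 5 arrays a group. Red points are the 130 probes called higher, blue points the 71 called lower and grey points the rest, and the line marks equal differences. The called probes, chosen on the mean of both differences, lie in the upper right and lower left of the plot. A1bg and Cyp17a1 are near the line and Hsd3b5 is far below it.

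The largest increase was that of A1bg, which encodes a secreted plasma glycoprotein. Its signal in the blank arrays was 6.11, 5.98, 6.63, 5.38 and 4.86 in XXSry and 5.20, 6.13, 6.15, 5.93 and 5.34 in XY-Sry. In the estradiol arrays it was 9.74, 9.27, 9.56, 9.25 and 7.78 in XXSry and 9.16, 11.08, 8.56, 9.45 and 8.33 in XY-Sry. All 10 estradiol arrays were above all 10 blank arrays, and the difference was 3.45 ± 0.48, or 10.9-fold (adjusted p = 2.22e-06). Only 3 of 5 XXSry and 3 of 5 XY-Sry blank arrays detected A1bg, so this fold rests in part on undetected blanks. Under the alternative settings its difference was 2.09 to 3.86. Cyp17a1, which encodes the steroid hydroxylase and lyase at the branch point to androgens, ranged from 6.16 to 8.43 (median 7.86) in the blank arrays and from 10.35 to 11.53 (median 11.17) in the estradiol arrays. The 2 arms did not overlap, and it rose by 3.35 ± 0.36, or 10.2-fold (adjusted p = 9.34e-09). Sult3a1, a sulfotransferase that is female-biased in mouse liver, was detected in none of the blank arrays, where its signal was 4.46 to 4.98, and in all 10 estradiol arrays, at 5.48 to 7.23. It was at least 2.16-fold higher with estradiol (adjusted p = 1.86e-07), a bound taken against the dimmest signal that counts as detected. Dct, which encodes dopachrome tautomerase of melanin synthesis, was 5.32, 5.58, 6.56, 7.12 and 6.11 in XXSry B and 8.98, 9.08, 8.76, 8.85 and 9.09 in XXSry E. In XY-Sry it was 4.50, 5.93, 5.67, 5.75 and 6.21 with the blank and 8.58, 8.74, 7.58, 7.76 and 7.77 with estradiol. The arms were again apart, and the difference was 2.64 ± 0.29 (adjusted p = 9.34e-09).

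**Figure D2:**
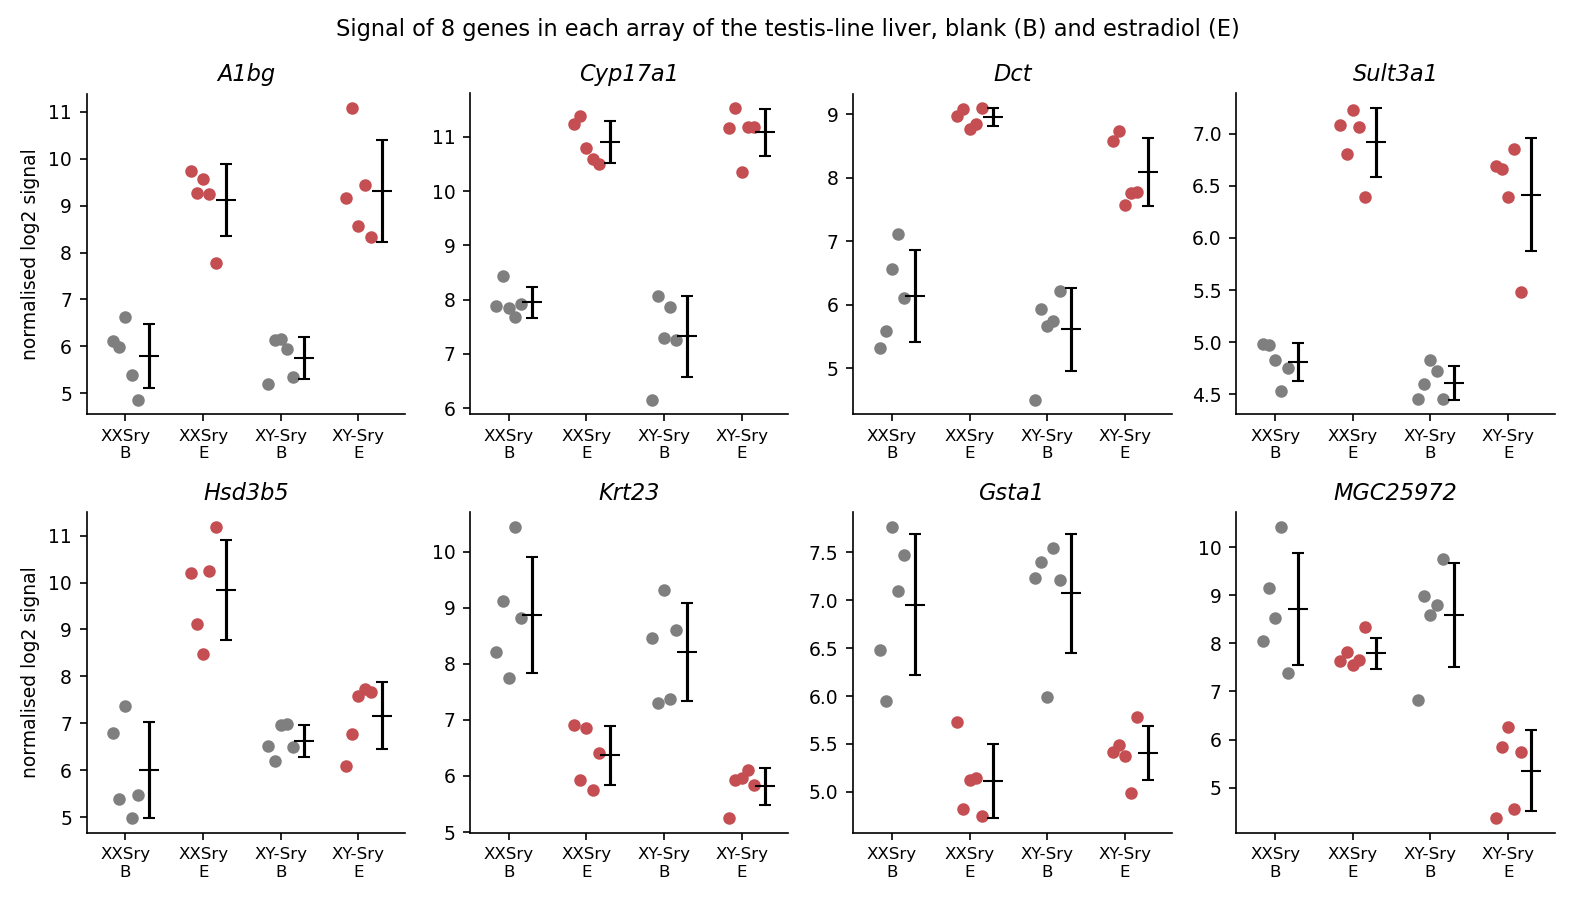
Normalised log2 signal (y axis) of 8 genes in each array of XXSry and XY-Sry liver with a blank (B, grey) or estradiol (E, red) capsule, with the mean and SD of each group of 5 in black. A1bg, Cyp17a1, Dct and Sult3a1 are higher in every estradiol array than in any blank array and Krt23 and Gsta1 lower, while Hsd3b5 separates in XXSry only and MGC25972 in XY-Sry only.

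The promoters of A1bg and Sult3a1 are shown because both genes had arms that did not overlap and both hold the letters of a STAT site (TTCNNNGAA, searched on both strands) in the 300-base RefSeq window around the annotated start. The sequences are from RefSeq, build GRCm38.p6, 5′ to 3′ on the strand of the gene, and the capitals mark that motif.
A1bg, chr15:60921221-60921520 (- strand): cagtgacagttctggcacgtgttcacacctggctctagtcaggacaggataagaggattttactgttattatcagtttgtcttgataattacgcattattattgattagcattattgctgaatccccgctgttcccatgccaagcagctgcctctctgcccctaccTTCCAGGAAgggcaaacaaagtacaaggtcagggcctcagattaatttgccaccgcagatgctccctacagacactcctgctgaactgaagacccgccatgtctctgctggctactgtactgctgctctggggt
Sult3a1, chr10:33857472-33857771 (+ strand): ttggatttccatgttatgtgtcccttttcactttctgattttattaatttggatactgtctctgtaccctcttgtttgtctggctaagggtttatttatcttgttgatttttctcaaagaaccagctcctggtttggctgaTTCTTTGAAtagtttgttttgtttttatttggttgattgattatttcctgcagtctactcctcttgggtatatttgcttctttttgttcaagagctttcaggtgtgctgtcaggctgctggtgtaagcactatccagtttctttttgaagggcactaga
Of the 12 genes with the largest increases 8 had a window in the RefSeq table, and A1bg and Sult3a1 were the 2 of these with TTCNNNGAA, which 8.3% of 32851 windows hold. Of the 9 genes with a window among the largest decreases 3 held it too, namely Gsta1, Parp16 and Syne4. A gene was counted when any of its windows held the letters, while the percentages are per window. None of the 8 genes that rose and had a window held the full estrogen response element (GGTCA, any 3 bases, TGACC), which 0.07% of all windows hold. A match describes letters in this window only.

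The other large increases were in genes of several roles. Insig2, an endoplasmic reticulum protein that holds back the activation of the sterol regulatory factors, had 3 tested probes with differences of 2.79 ± 0.39, 0.99 ± 0.23 and 0.70 ± 0.21. The first 2 passed the test (adjusted p = 2.22e-06 and 0.00798) and the third had an adjusted p of 0.0771, so the probes disagree in size. On the first probe the blank arrays ranged from 4.59 to 6.74 and the estradiol arrays from 7.65 to 9.03. Only 3 of 5 XXSry and 1 of 5 XY-Sry blank arrays detected this probe. Under the alternative settings its difference was 1.42 to 2.80. Serpina12, which encodes the secreted serpin vaspin, rose by 2.66 ± 0.41 on 1 probe (adjusted p = 2.06e-05) with arms that did not overlap, and its second probe differed by 0.46 ± 0.18 (adjusted p = 0.245). Among the other serpins, Serpina1e, an antitrypsin, rose by 2.07 ± 0.26 and Serpina3k by 1.97 ± 0.23, with blank arrays at 11.15 to 12.93 and 5.41 to 7.03 and estradiol arrays at 12.48 to 14.63 and 7.44 to 8.73. Dio1, the deiodinase that activates thyroid hormone, rose by 1.60 ± 0.18, from 8.08 to 9.67 in the blank arrays to 9.82 to 11.19 in the estradiol arrays. Sqle, which encodes squalene epoxidase, rose by 1.65 ± 0.34 and 1.53 ± 0.30 on its 2 probes. All 12 genes with the largest increases kept their sign with slide as a block, where the differences were 1.43 to 3.86, and within slide 3, where they were 0.74 to 3.58. Within slide 1, where XY-Sry alone had both capsules, 11 of 12 kept it, and Hsd3b5 had a difference of -0.42.

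The largest decrease was that of Krt23, a keratin of simple epithelia. Its blank signal was 8.20, 9.13, 7.76, 10.45 and 8.82 in XXSry and 8.47, 7.30, 9.32, 7.37 and 8.60 in XY-Sry, and its estradiol signal was 6.91, 5.93, 6.85, 5.75 and 6.41 in XXSry and 5.25, 5.93, 5.97, 6.11 and 5.83 in XY-Sry. Every estradiol array lay below every blank array, and Krt23 fell by 2.45 ± 0.35 on the log2 scale, or 5.46-fold (adjusted p = 3.17e-06). Krt23 is also 1 of the 2 tested markers of bile duct cells, and the other differed by 0.14. Gsta1 and Gsta2, glutathione transferases that conjugate electrophiles, fell by 1.75 ± 0.30 and 1.01 ± 0.20. Gsta1 was detected in all 10 blank arrays, at 5.95 to 7.77, and in 2 of 10 estradiol arrays, at 4.75 to 5.78, with no overlap. MGC25972, for which no role is given here, fell by 2.07 ± 0.51 (adjusted p = 0.0158), and without XXSry B replicate 4 its adjusted p was 0.0536.

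Receptors and signalling genes were among the other decreases. Vldlr, the receptor for very low density lipoprotein, fell on all 3 of its probes, by 1.12 ± 0.23, 1.10 ± 0.23 and 0.97 ± 0.25. Adora1, an adenosine receptor, fell by 1.17 ± 0.26 on 1 probe, and its second probe had a difference of -0.18 ± 0.21. Adam11, a membrane protein of the ADAM family, fell by 1.43 ± 0.21, with 1 of 10 estradiol arrays detecting it and no overlap between the arms. Pde6c, a phosphodiesterase known from cone photoreceptors, fell by 1.10 ± 0.24, and Syne4, a nesprin of the nuclear envelope, by 1.07 ± 0.26. Parp16, an ADP-ribosyltransferase of the endoplasmic reticulum, ranged from 7.20 to 8.14 with the blank and from 6.27 to 6.84 with estradiol, and fell by 0.995 ± 0.17. The noncoding RNA Snhg11 fell by 1.03 ± 0.21, and Nat8, an acetyltransferase gene that is male-biased in liver, by 1.24 ± 0.26. All 12 genes with the largest decreases kept their sign with slide as a fixed block (-2.80 to -0.81) and within slides 1 (-3.92 to -0.51) and 3 (-3.48 to -0.53). Here too the slides held only the few arrays given above, from which the genes had also been picked. Syne4 lost its call without XXSry E replicate 4, where it was -0.95.

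Cholesterol synthesis was the metabolic list with the most calls. Of its 29 genes 22 were tested with 33 probes, of which 12 rose, none fell and 30 had a positive difference. The median was 0.61, against -0.01 over all tested probes and 1.15% of probes called higher. Along the pathway, Hmgcs1, an early enzyme, rose by 0.89 ± 0.20, Mvd by 1.32 ± 0.32 and Fdps, which makes farnesyl diphosphate, by 0.89 ± 0.22. Cyp51, the lanosterol demethylase that acts after Sqle, rose by 1.04 ± 0.25. Nsdhl, a later demethylating enzyme, rose on all 4 of its probes, by 1.13 to 1.23. Nsdhl in XY-Sry was 7.73, 7.71, 7.96, 8.06 and 9.20 with the blank and 10.30, 9.54, 9.62, 9.40 and 9.68 with estradiol. In XXSry it was 9.45, 8.81, 8.70, 9.48 and 9.29 with the blank and 9.53, 10.40, 9.89, 10.40 and 9.89 with estradiol. All 10 estradiol arrays were above the blank arrays of their own genotype on this probe, while over both genotypes the arms overlapped, since 2 XXSry blanks were above the lowest XY-Sry estradiol array. Of the genes that did not pass, Lss, the cyclase that makes lanosterol, differed by 0.71 ± 0.22 (adjusted p = 0.0848) and Idi1 by 0.81 ± 0.29 (adjusted p = 0.179). The list's median was 0.53 with slide as a fixed block, 0.69 within slide 1 and 0.20 within slide 3, and under median centring it was 0.48 with 5 probes called.

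Promoter windows of 2 called genes of this list are shown because their transcripts rose and because they hold several copies of the CCAAT box, the site of NF-Y, a factor known to bind beside the sterol regulatory factors. They are again RefSeq sequences of GRCm38.p6, and capitals mark CCAAT or its reverse complement ATTGG and, in Hmgcs1, a sterol regulatory element with the letters TCACNCCAC.
Hmgcs1, chr13:119690101-119690400 (+ strand): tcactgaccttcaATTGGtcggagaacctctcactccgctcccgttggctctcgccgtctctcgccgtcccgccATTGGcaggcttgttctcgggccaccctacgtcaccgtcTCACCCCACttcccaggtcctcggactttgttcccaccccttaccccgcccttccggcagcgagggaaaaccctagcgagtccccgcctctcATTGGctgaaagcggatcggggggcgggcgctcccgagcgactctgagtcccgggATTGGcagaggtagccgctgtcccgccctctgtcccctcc
Nsdhl, chrX:72918271-72918570 (+ strand): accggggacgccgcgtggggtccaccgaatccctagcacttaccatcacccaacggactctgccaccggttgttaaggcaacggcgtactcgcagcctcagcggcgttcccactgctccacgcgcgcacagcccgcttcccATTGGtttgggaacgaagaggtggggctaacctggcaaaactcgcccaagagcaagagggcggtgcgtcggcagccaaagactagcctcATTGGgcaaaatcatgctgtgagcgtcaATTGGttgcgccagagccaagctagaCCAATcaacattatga
Both windows hold 4 CCAAT boxes. Of the 7 called cholesterol genes 5 had a window (Cyp51, Hmgcs1, Insig2, Mvd and Nsdhl) and all 5 held CCAAT, against 37.4% of all windows. The tested genes of the list, called or not, held it in 14 of 16. A gene was counted when any of its windows held it, while the 37.4% is per window, so these shares are not like for like. Insig2, for one, also had windows without it. TCACNCCAC was in Hmgcs1 alone among these 16 and in 1.24% of all windows.

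The sex-biased genes did not move as a group in the direction their names give. Over all tested probes 1.15% were called higher and 0.627% lower. Of 15 tested probes of the female-biased list 5 rose and none fell, those of A1bg, Cyp17a1 and Sult3a1 among them, and the median was 0.18. Other female-biased genes did not pass: Cyp2b9 differed by -0.15 ± 0.43 and Cyp2b13 by -0.85 ± 0.55, both steroid hydroxylases, and Cux2, a female-biased repressor, by 0.61 ± 0.33. Of 30 probes of the male-biased list 5 rose and 1 fell, with a median of 0.32. The members that rose were Serpina12, Serpina1e, Hsd3b5 and Egfr, the last on 2 of 4 probes by 1.12 and 1.07, and Nat8 was the one that fell. Cyp2d9, a male-biased steroid hydroxylase, differed by -0.86 ± 0.43 (adjusted p = 0.408), and Slco1a1, a male-biased organic anion transporter that was detected in none of the blank arrays, by 0.50 ± 0.17 (adjusted p = 0.145). Cyp2d9 was called from the 20 arrays alone (adjusted p = 0.0382) and Slco1a1 with array weights (adjusted p = 0.0406). None of the 7 probes of the major urinary proteins, pheromone carriers made under male-like growth hormone pulses, passed, and all 7 had a positive difference (0.12 to 0.72). A probe of the Mup, Cyp2b or Gsta family can hold signal of several members, which was not tested.

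Genes of the receptors themselves moved little. Esr1 ranged from 5.85 to 7.40 in the blank arrays and from 6.20 to 7.40 with estradiol, and differed by 0.39 ± 0.20 (adjusted p = 0.421). Of 15 probes of estrogen receptors and response genes 1 fell, that of Esrra, an orphan receptor of mitochondrial genes, by 0.69 ± 0.12 (adjusted p = 0.000156), with every estradiol array (8.23 to 8.80) below every blank array (8.85 to 9.70). Agt, angiotensinogen, differed by -0.47 ± 0.14 (adjusted p = 0.0664) and F12, a clotting factor known as estrogen-responsive, by 0.08 ± 0.13. Agt was called with array weights and from the 20 arrays alone (lowest adjusted p = 0.0125). Pgr and Greb1, classical estrogen targets in reproductive tissue, and Stat5b were not among the tested probes. In the list of growth hormone signalling and liver regulators, 1 of 35 probes rose and 2 fell, against 1.78% called over all tested probes. Igfbp2, a binding protein of insulin-like growth factors, fell on both probes, by 0.96 ± 0.19 and 0.89 ± 0.25. On the first, blank arrays were at 12.45 to 13.28 and estradiol arrays at 11.27 to 12.48. Stat5a rose on 1 of 2 probes by 0.62 ± 0.17 (adjusted p = 0.0430), a call lost under both slide blocks, median centring, testing without the filter and leaving out any of 12 arrays in turn. The growth hormone receptor gene Ghr differed by -0.08 ± 0.21, Igf1 by 0.29 ± 0.11, and the STAT5 targets Cish by -0.29 ± 0.42 and Socs2 by 0.47 ± 0.26, none of which passed, though Igf1 did from the 20 arrays alone (adjusted p = 0.0464). Bcl6, a repressor that opposes STAT5, differed by -0.39 ± 0.41 (adjusted p = 0.800).

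Calls among enzymes of steroid and xenobiotic metabolism are to be read against the 1.78% called over all tested probes. In the steroid metabolism list 2 of 31 probes rose, those of Cyp17a1 and Hsd3b5, and none fell. Of 50 probes of the Cyp2, Cyp3 and Cyp4 families 1 rose, that of Cyp2d40, by 0.54 ± 0.15 (adjusted p = 0.0448), a call lost in the slide-blocked fit, under median centring, without the filter and without any of 14 arrays in turn, against 1.78% called over all tested probes. The list of conjugation enzymes and monooxygenases had 5 of 55 probes higher and 4 lower, with a median of -0.03. The increases included those of Sult3a1 and of Sult5a1, another sulfotransferase, which rose on both probes by 1.56 ± 0.26 and 1.26 ± 0.28. The decreases were all in glutathione transferases (Gsta1, Gsta2, Gsta4 and Gstt2).

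**Figure D3:**
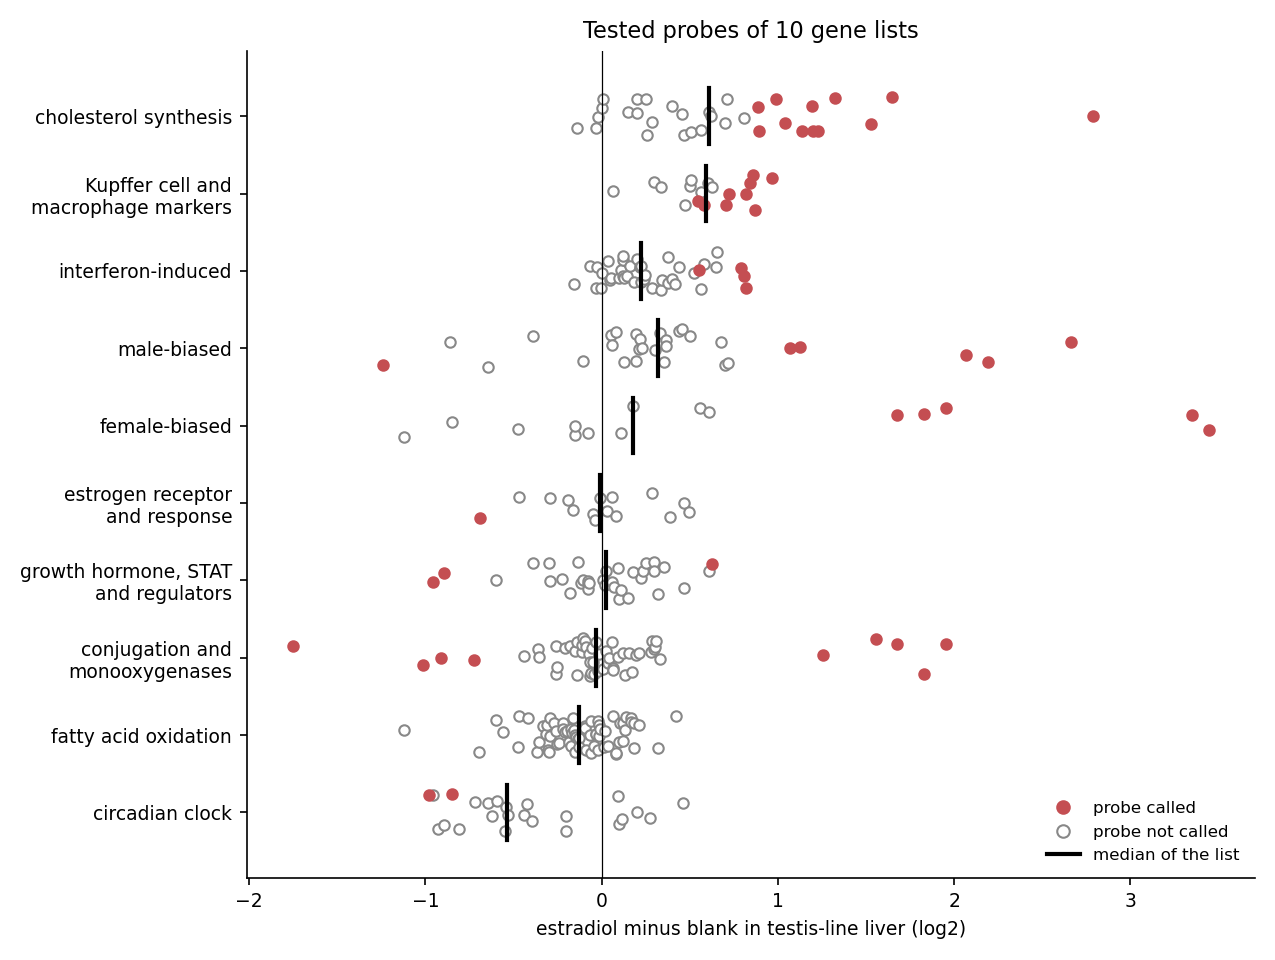
Estradiol minus blank (log2, x axis) of each tested probe of 10 gene lists (rows) in testis-line liver, with called probes filled red, the others open and the median of each list as a bar. Called probes of cholesterol synthesis and of the macrophage markers all lie to the right of 0, while those of conjugation lie on both sides.

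Transcripts of liver macrophages were higher with estradiol. Of 18 tested probes of the Kupffer cell and macrophage markers 9 rose and none fell, all 18 had a positive difference and the median was 0.59. Over all tested probes 1.15% were called higher. C1qb, a subunit of complement C1q, was 9.87, 9.44, 9.64, 9.39 and 9.52 in XXSry B and 9.44, 9.58, 9.85, 9.75 and 9.75 in XY-Sry B. With estradiol it was 10.18 to 10.53 in XXSry and 11.11, 10.45, 11.02, 10.01 and 10.99 in XY-Sry. All estradiol arrays were above all blank arrays, by 0.87 ± 0.15 (adjusted p = 0.000123). Vsig4, a complement receptor of Kupffer cells, rose by 0.84 ± 0.16 and C1qc by 0.72 ± 0.17, also with no overlap. Lyz2, the macrophage lysozyme, rose on 2 of 3 probes (0.97 and 0.82), Cd68 by 0.86 ± 0.21 and Timd4, a receptor of resident macrophages, by 0.55 ± 0.15, a call lost under 5 of the alternatives. Csf1r, the receptor for the macrophage growth factor, was detected in none of the blank arrays and in 5 estradiol arrays, and was at least 1.09-fold higher (adjusted p = 0.0162), a call lost without background correction and without XY-Sry E replicate 5 or XXSry E replicate 4. Clec4f, a lectin of Kupffer cells alone, differed by 0.56 ± 0.17 (adjusted p = 0.0837), and was called under both slide blocks, with array weights and from the 20 arrays alone (lowest adjusted p = 0.000654). Adgre1, which encodes F4/80, differed by 0.47 to 0.61 on 3 probes without passing, and Marco by 0.07 ± 0.18. The summed signal of the list was 4007 to 5773 in XXSry B and 4788 to 5414 in XY-Sry B, and 6964 to 8378 in XXSry E and 6011 to 13102 in XY-Sry E, so the arms did not overlap. In these bulk samples more cells of a type and more RNA per cell cannot be told apart. The list's median was 0.71 with slide as a fixed block, where 13 probes rose, 1.08 within slide 1 and 0.80 within slide 3. Under median centring it was 0.46 and 1 probe rose.

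Single members of the interferon, complement and acute phase lists were called, to be read against 1.78% called over all tested probes. Beyond the lists, Cd207, known as langerin, rose by 1.27 ± 0.21 and Folr2, a folate receptor of resident macrophages, by 0.99 ± 0.17, and both were picked after their values were seen. The call of Folr2 was lost under median centring (adjusted p = 0.0573). Of 41 probes of interferon-induced genes 4 rose, in Irf7 (0.82 ± 0.18), Gbp4 (0.81 ± 0.21), Ifit2 (0.79 ± 0.19) and Oas2 (0.55 ± 0.15), with a list median of 0.22. None of these 4 was called under median centring. Gbp4 and Oas2 also lost their calls without the filter and without any of 4 (Gbp4) or 7 (Oas2) arrays in turn. The second probe of Gbp4 differed by 0.65 ± 0.19 (adjusted p = 0.0540) and that of Ifit2 by 0.12 ± 0.15 (adjusted p = 0.843). The called Ifit2 probe was detected in none of the XY-Sry blank arrays. Ifit2 in XY-Sry went from 5.10, 4.84, 5.24, 5.26 and 5.35 to 7.31, 6.21, 6.83, 6.29 and 5.94, and in XXSry from 5.85, 5.21, 5.44, 5.22 and 5.80 to 5.76, 5.65, 4.78, 5.90 and 6.52, where the groups overlapped. None of 27 probes of antigen presentation passed. Of 71 probes of complement and coagulation genes 4 rose and 1 fell. F11, a clotting factor, rose on 2 of 3 probes (0.96 ± 0.18 and 0.86 ± 0.13), and C2, a complement protease, fell by 0.45 ± 0.11 with no overlap between the arms (11.50 to 11.90 against 11.92 to 12.24). Under median centring C2 was not called (adjusted p = 0.0649), nor was the F11 probe at 0.96 (adjusted p = 0.121). Serpina3k was the only one of 41 acute phase probes to pass.

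None of the 10 tested neutrophil markers passed in this fit. Most were near the floor: 1 to 2 of the 10 probes were detected in each blank array, 2 in each XXSry E array and 2 to 4 in each XY-Sry E array. Lcn2, a siderophore-binding acute phase and neutrophil protein, was 9.95, 7.65, 7.73, 7.60 and 13.59 in XY-Sry E and 6.41 to 7.64 in XY-Sry B, with a difference over both genotypes of 1.73 ± 0.76 (adjusted p = 0.314). S100a8, a calcium-binding protein of neutrophils, was 8.93, 7.19, 8.18, 7.16 and 8.88 in XY-Sry E and 5.27 to 6.29 in XY-Sry B, and its difference over both genotypes was 1.35 ± 0.44 (adjusted p = 0.111). It was called with slide as a fixed block, with array weights and from the 20 arrays alone, where the lowest adjusted p was 0.00411. In XXSry it was 5.80 to 6.59 with estradiol and 5.06 to 6.20 with the blank. The summed neutrophil signal was 539 to 13106 in XY-Sry E, 544 to 778 in XXSry E and 349 to 522 in the blank groups. Ngp, Camp, Mpo and Ltf, markers of neutrophil granules, had differences between -0.01 and 0.44, and their part, and that of neutrophils, in the other differences was not tested. The lists of T and NK cells, B and plasma cells, endothelium, stellate cells and fibroblasts, adipocytes, exocrine pancreas, skeletal muscle and hepatocytes had no called probe, and 1 of 6 erythroid probes fell, that of Alas2. T and NK cells had only 3 tested probes, and B and plasma cells, adipocytes, exocrine pancreas and skeletal muscle 2 each. Of the T and NK, adipocyte and muscle lists, no array detected more than 1 probe each. The lack of calls in such lists says little about these cells.

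Lipid, bile acid and clock genes had shares of called probes to be read against the 1.78% over all tested probes. None of 69 probes of fatty acid oxidation passed (median -0.13). Ppara, the receptor that governs them, differed by -0.60 ± 0.21 (adjusted p = 0.152) and Cpt1a by -0.47 ± 0.15 (adjusted p = 0.112). Cpt1a was called under both slide blocks (lowest adjusted p = 0.0399) and Ppara under median centring and with array weights (lowest adjusted p = 0.0314). Of 31 probes of fatty acid synthesis 1 rose, that of Me1, malic enzyme, by 0.90 ± 0.25 (adjusted p = 0.0404), a call lost in the slide-blocked fit, under median centring, without the filter and without any of 10 arrays in turn. Scd1 differed by 0.21 ± 0.16 and Srebf1 by -0.26 ± 0.24, and Fasn was not among the tested probes. Among 41 bile acid probes 1 rose, that of Cyp27a1, the sterol hydroxylase of the alternative bile acid pathway. Cyp27a1 ranged from 12.48 to 12.83 with the blank and from 12.95 to 13.23 with estradiol, a difference of 0.43 ± 0.09 (adjusted p = 0.00140) with no overlap, and its other 2 probes, at 0.35 and 0.35, did not pass. The call was lost under median centring (adjusted p = 0.426). The rate-limiting Cyp7a1 differed by -0.08 ± 0.39, Cyp8b1 by 0.47 ± 0.29, and the transporters Abcb11 by 0.35 ± 0.18 and Slc10a1 by 0.09 ± 0.16. In the apolipoprotein and lipoprotein list Pltp, the phospholipid transfer protein, rose by 0.93 ± 0.20 on 1 of 2 probes, a call lost under median centring, and the 3 probes that fell were those of Vldlr. Of 24 probes of clock genes 2 fell and the median was -0.54. Per2 fell by 0.98 ± 0.27 on 1 of 3 (adjusted p = 0.0442), a call lost in the slide-blocked fit, under median centring, without the filter and without any of 16 arrays in turn. The clock output gene Dbp differed by -0.54 ± 0.42, and the hour at which each tissue was taken is not given in the labels, so its part was not tested.

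The response was compared between the sex chromosome complements within the testis line. All 201 called probes had the same sign in XXSry and XY-Sry. The call rests on the mean of both genotypes, which favours such agreement, so it does not test whether the response is shared. Fitted alone, XXSry had 35 calls (0.309%) and XY-Sry 57 (0.504%), 23 and 40 of them higher. The test of the difference between the genotypes called no probe in limma, and 234 had an unadjusted p under 0.05 (2.07%), so no gene was shown to respond differently. The largest gap among the named genes was that of Hsd3b5, a 3-ketosteroid reductase of male liver. In XXSry it was 6.80, 5.38, 7.36, 4.99 and 5.47 with the blank and 10.20, 9.11, 8.47, 10.25 and 11.19 with estradiol, with no overlap and a difference of 3.85 ± 0.71. In XY-Sry it was 6.52, 6.19, 6.96, 6.98 and 6.50 with the blank and 6.09, 6.76, 7.58, 7.72 and 7.66 with estradiol, which overlap, and the difference was 0.53 ± 0.71. With slide as a fixed block the adjusted p of Hsd3b5 over both genotypes was 0.118. MGC25972 showed the opposite gap, with -0.91 ± 0.73 in XXSry and -3.23 ± 0.73 in XY-Sry. The median of the cholesterol list was 0.38 in XXSry and 0.77 in XY-Sry, that of the interferon list 0.06 and 0.46, that of the clock list -0.13 and -0.77, and that of the macrophage markers 0.56 and 0.65, and the difference of these medians was not tested.

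The same hormone gave a partly different response in the ovary line, whose mice share no sample with the testis line. In XX and XY- liver 280 probes were called (2.47%), 156 higher (1.38%) and 124 lower (1.10%), and 416 without XY- E replicate 5 and XY-Sry T replicate 5. The 2 lines had 45 calls in common, 22.4% of the testis-line calls and 16.1% of the ovary-line calls, and all 45 had the same sign. Without the 2 doubted arrays they had 61 in common, 28.9% and 14.7%, again all of the same sign. Of the 201 testis-line calls 177 had the same sign in the ovary line, where the median difference was 0.38 for the increases and -0.37 for the decreases. The difference between the lines was called for 9 probes (0.0795%), 8 of them with the higher response in the testis line (0.0707%). Without the 2 doubted arrays it was called for 37 probes, and without XXSry E replicate 4 for 4.

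Of these 9 genes A1bg, Sult3a1, Dct and Dio1 had lower means in testis-line blanks than in ovary-line blanks. So did the called Me1 probe and Hao2, which no testis-line array detected. Pltp did too, with 8.97 in XXSry B and 8.61 in XY-Sry B against 9.76 in XX B and 9.93 in XY- B. A1bg had means of 5.79 ± 0.69 (SD, n = 5) in XXSry B and 5.75 ± 0.45 (SD, n = 5) in XY-Sry B, and of 11.69 ± 1.52 in XX B and 11.29 ± 0.68 in XY- B. With estradiol it was 9.12 ± 0.78 in XXSry, 9.32 ± 1.08 in XY-Sry, 12.05 ± 0.66 in XX and 8.13 ± 2.97 in XY-, where replicates 2 and 5 were at 5.64 and 4.59. Its response was 4.85 higher in the testis line (adjusted p = 2.65e-05), and 4.41 higher without the doubted arrays. Sult3a1 was 7.44 ± 0.76 in XX B and 7.68 ± 0.51 in XY- B, levels that no testis-line array reached. Its call between the lines rests on testis-line blanks in which it was not detected, so the size of that difference was not measured. Dct (2.87) and Dio1 (1.18) showed the same order, with ovary-line blanks at 8.94 ± 0.72 and 10.06 ± 0.54 in XX. Cyp17a1 rose in both lines, by 3.35 ± 0.36 in the testis line and 1.36 ± 0.36 in the ovary line, and the difference between them did not pass (adjusted p = 0.0968). Without the doubted arrays it did, for Cyp17a1 (1.70, adjusted p = 0.0473) and also for Hsd3b5 (2.51, adjusted p = 0.00500).

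The remaining calls between the lines concerned lipid genes and a peroxisomal oxidase. Pltp differed by 1.35 between the lines, with -0.41 ± 0.20 in the ovary line, and Me1 by 1.34 on the probe called here. Both calls were lost under median centring and without XXSry E replicate 4. Lpl, lipoprotein lipase, was the 1 probe with the higher response in the ovary line, with -0.34 ± 0.20 in the testis line and 0.94 ± 0.20 in the ovary line (adjusted p = 0.0452 for the difference), a call lost under median centring and without any of 13 arrays in turn. Hao2, a peroxisomal hydroxyacid oxidase listed as Hao3, was detected in none of the 20 testis-line arrays and fell by 1.08 ± 0.14 in the ovary line, so its difference between the lines of 1.01 rests on the ovary line. There 5 of 5 XX and 3 of 5 XY- blank arrays detected Hao2 and no estradiol array did, so the size of the fall was not measured. Macrophage markers were higher in the ovary line too: C1qb rose by 0.74 ± 0.15 and Vsig4 by 0.66 ± 0.16 in the ovary line, and the list's median was 0.59 there as well. The neutrophil list had 8 of 10 probes called higher in the ovary line (median 1.72), against none in the testis line, and the adjusted p of the difference was 0.379 for S100a8 and 0.969 for Lcn2. Acute phase genes had 14 of 41 probes called higher in the ovary line. Without the doubted arrays these counts were 9 of 10 and 19 of 41, the difference between the lines was called for 6 of the 10 neutrophil probes, S100a8 among them (-2.30, adjusted p = 0.0448), and the macrophage median was 0.64.

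**Figure D4:**
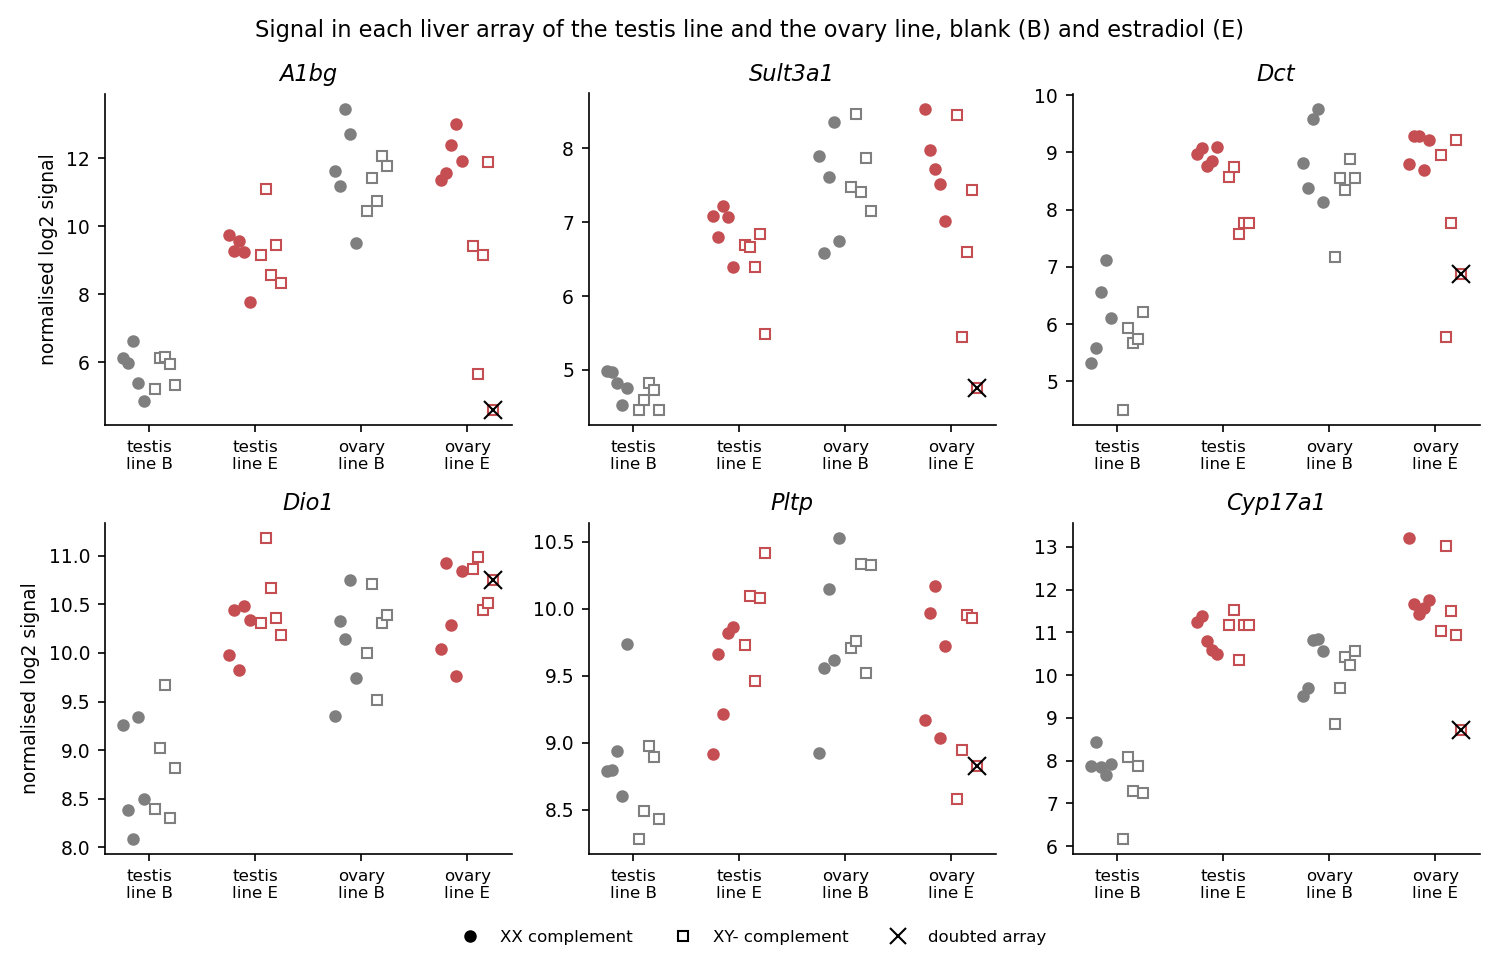
Normalised log2 signal (y axis) of 6 genes in each liver array of the testis line (XXSry and XY-Sry) and the ovary line (XX and XY-), with a blank (B, grey) or estradiol (E, red) capsule. Filled circles are arrays with the XX complement, open squares those with XY-, and the cross marks XY- E replicate 5. A1bg, Sult3a1, Dct and Dio1 rise from low blank levels in the testis line and start high in the ovary line. The mean blank levels of Pltp and Cyp17a1 are also lower in the testis line.

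Testosterone values of the same genes are set beside those of estradiol, and both hormones were compared with the same 10 blank arrays. Testosterone changed 1034 probes (9.14%) in testis-line liver, and 903 without the 2 doubted arrays. Leaving these out moved no value given here by more than 0.30 and changed no call among them. Insig2 (3.16 ± 0.39), Serpina12 (2.51 ± 0.41), Serpina1e (2.60 ± 0.26) and Serpina3k (3.03 ± 0.23) were also higher with testosterone. Hsd3b5 was 5.90 ± 0.50 higher with testosterone. Cyp17a1 differed by 0.16 ± 0.36 and Sult3a1, which was not detected in any testosterone array, by -0.14 ± 0.24. A1bg differed by -0.90 ± 0.48 (adjusted p = 0.260). Vldlr fell by 2.79 ± 0.23 and MGC25972 rose by 4.81 ± 0.51 with testosterone, whereas Krt23 differed by -0.52 ± 0.35, Gsta1 by 0.17 ± 0.30 and Gsta2 by -0.01 ± 0.20. Esr1 fell by 1.12 ± 0.20 with testosterone. Sqle differed by 0.66 ± 0.34 and C1qb by 0.03 ± 0.15.

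**Figure D5:**
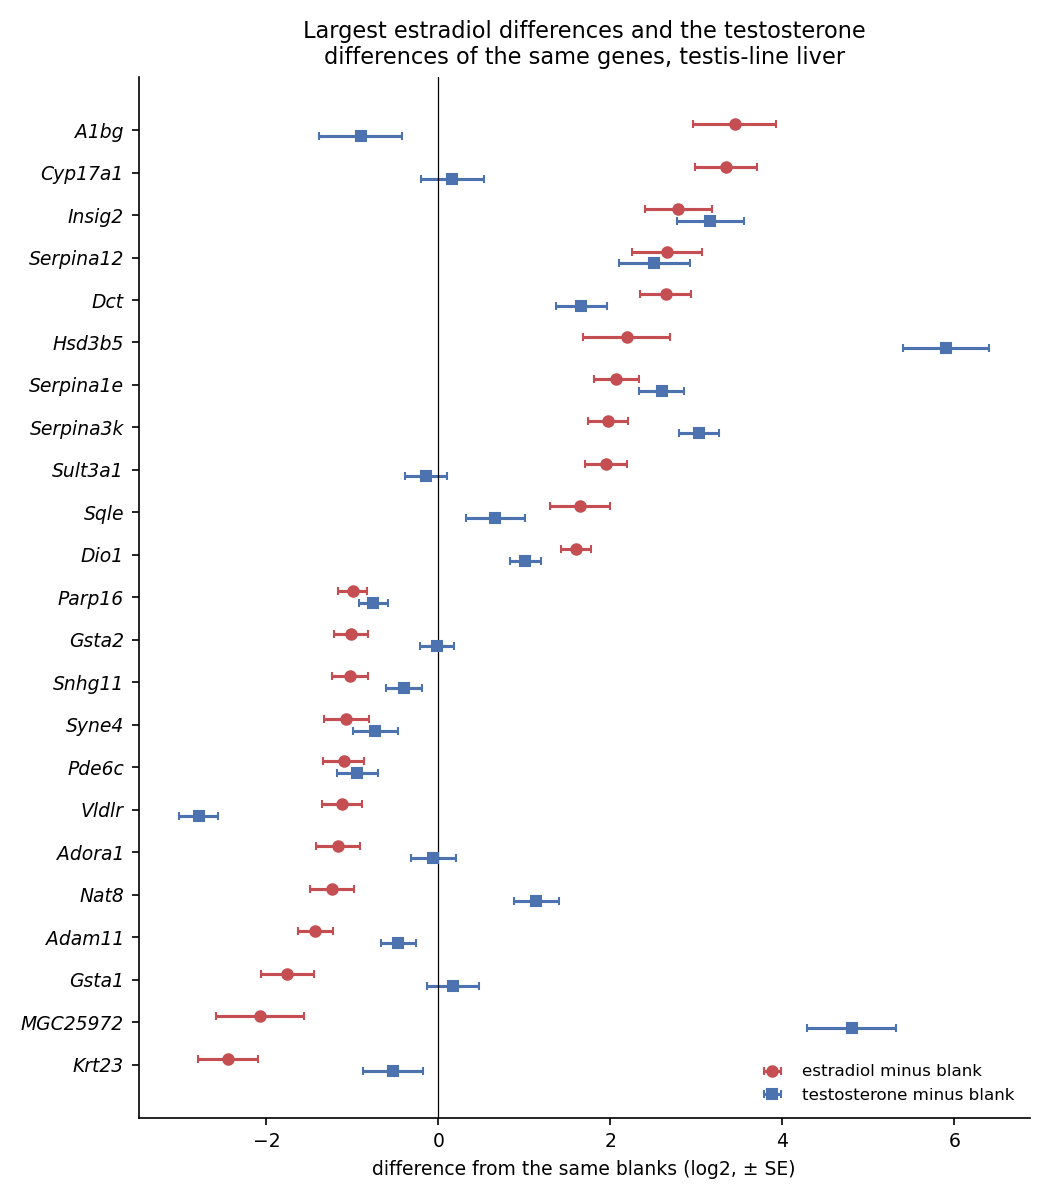
Difference from the 10 blank arrays (log2, x axis, bars are ± SE) with estradiol (red circles) and with testosterone (blue squares) of 23 of the genes with the largest called estradiol differences in testis-line liver. Insig2, Serpina12, Serpina1e and Serpina3k are high with both hormones, while A1bg, Cyp17a1 and Sult3a1 are near or below 0 with testosterone and Nat8 and MGC25972 have opposite signs.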

How the data were processed

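RNA of liver from XXSry, XY-Sry, XX and XY- mice was hybridised to Illumina BeadChip arrays. The authors deposited a table of probe intensities as read from the scanner, and beside each a detection p-value, the chance that a negative control bead is as bright, per the file headers. The submitters' processing notes name lumi, without a version or a step, and the genome build is not given in the sources used here. The 60 columns of bead standard errors were not used.

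Intensities of the 60 liver arrays were background-corrected with limma 3.58.1 (R 4.3.3; normexp, with negative controls inferred from the detection p-values, offset 16), quantile-normalised and put on the log2 scale. Probes with a detection p under 0.01 in at least 5 arrays were kept. One mean per group was fitted with lmFit and eBayes over 60 arrays (48 residual degrees of freedom), p-values were adjusted by Benjamini-Hochberg over 11317 probes, and the estradiol effect is the mean over both genotypes. The number of arrays limits the precision. The fit was tested on simulated data. Alternatives were another normalisation, background, offset and filter, slide as a block (the number that opens each array's title), array weights, a trend, the 20 arrays alone, and each array left out.

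The members and gene lists were chosen with earlier results of these data known. Genes were named by rule: the 12 largest called increases and decreases, up to 4 called genes per list, preset regulators and the leading genes that differed between comparisons. Macrophage and cholesterol genes, the remaining genes that differed between the lines, all other probes of a named gene, and Lcn2, S100a8, Cd207, Folr2, Cyp2d9, Cyp2b9, Cyp2b13, Clec4f, Dbp, Slco1a1, Lss, Idi1, Egfr, Gsta4, Gstt2, Alas2, Adgre1, Marco, Ngp, Camp, Mpo and Ltf were named after their values were seen. Results of some genes are not reported here.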

Additional observations from a re-analysis of the deposited data

Results flagged for a closer look

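Of 364 groups of 5 arrays checked, one for each named probe and group, 25 had an array set apart from the others by more than Dixon's limit, where chance gives about 1 in 20. No explanation was tested. XXSry E replicate 1 stood apart for Bcl6 at 10.27 (others 7.07 to 7.79), Hamp at 12.12 (others 12.86 to 13.02), Lcn2 at 8.88 (others 7.95 to 8.17) and Slco1a1 at 6.21 (others 5.58 to 5.75). XY-Sry E replicate 1 stood apart for Serpina1e at 12.48 (others 13.78 to 14.26), Sqle at 11.01 (others 9.75 to 9.94), Cyp2d40 at 11.45 (others 10.52 to 10.77) and Cyp2d9 at 8.25 (others 9.74 to 10.16). XY-Sry B replicate 5 stood apart for Nsdhl at 9.20 (others 7.71 to 8.06), Cd68 at 6.82 (others 6.04 to 6.25) and Hmgcs1 at 13.97 (others 12.44 to 12.85). XXSry B replicate 1 stood apart for Gsta2 at 8.17 (others 8.72 to 8.90) and Cd68 at 7.22 (others 5.64 to 6.07). XXSry E replicate 3 stood apart for Cyp27a1 at 13.23 (others 12.98 to 13.03) and C1qb at 10.53 (others 10.18 to 10.23). XXSry E replicate 5 stood apart for A1bg at 7.78 (others 9.25 to 9.74) and Cenpa at 9.49 (others 9.11 to 9.15). XY-Sry B replicate 3 stood apart for Gsta1 at 5.99 (others 7.21 to 7.54) and Esr1 at 7.40 (others 5.85 to 6.29). XY-Sry B replicate 4 stood apart for Parp16 at 7.98 (others 7.36 to 7.45) and Cdk1 at 5.23 (others 4.80 to 4.89). XXSry B replicate 3 stood apart for Per2 at 8.28 (others 9.48 to 9.96). XXSry E replicate 2 stood apart for Eif2s3y at 4.96 (others 4.40 to 4.54). XXSry E replicate 4 stood apart for Csf1r at 6.17 (others 5.37 to 5.59). XY-Sry E replicate 4 stood apart for Cd68 at 6.07 (others 7.47 to 7.94).

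The estradiol effect differed between the testis and the ovary line, by the test of the difference itself in limma, in 9 probes, of which 8 are given. It was higher in the testis line by 4.85 for A1bg, 2.87 for Dct, 2.37 for Sult3a1, 1.01 for Hao2, 1.35 for Pltp, 1.34 for Me1 and 1.18 for Dio1. For Lpl the difference was -1.28. The sizes for Sult3a1 and Hao2 rest on testis-line groups in which the gene was not detected. That of Hao2 also rests on ovary-line estradiol arrays, none of which detected it. Without the 2 doubted arrays these 8 differences kept their sign and their call. Other processing ended some calls: those of Hao2, Dio1 and Lpl without background correction, and those of Dio1, Me1, Pltp and Lpl without the filter. Median centring ended those of Me1, Pltp and Lpl. Leaving out 1 array in turn ended the call of Lpl for 13 arrays, Dio1 for 7, Me1 for 2 and Pltp for 1.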

How the results depend on the processing

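The count of called probes in the testis line (201, 130 of them higher) was 76 (35 higher) under median centring, 381 (215) with slide as a fixed block, 322 with slide as a random block, 437 (269) with array weights and 385 (238) from the 20 testis-line arrays alone. It was 204 without background correction, 215 with the larger offset, 155 without the filter, 204 with a stricter one, 209 with a trend and 211 without the 2 doubted arrays. In the ovary line it was 719 under median centring, 686 with the fixed and 578 with the random block, and for testosterone it was 410 under median centring. The count of probes that differed between the lines (9) was 4 without the filter on dim probes, 36 with the fixed block, 47 with the random block, 36 with array weights and 37 without the 2 doubted arrays. Leaving out 1 testis-line array in turn gave 155 to 207 calls (103 to 135 higher), no call between genotypes, 266 to 281 in the ovary line, 858 to 1103 for testosterone and 4 to 11 between the lines, with the lowest testis-line count without XXSry E replicate 4. Hsd3b5 had the opposite sign within slide 1 (-0.42). Of 58 called probes of named genes 26 lost the call under median centring and 7 with slide as a fixed block, and none changed sign in a fit. The cause was not tested. No paired analysis was possible because the labels give no replicate numbers, so numbers in accession order only name the arrays.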

Other observations

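Cell division genes had 3 of 21 tested probes higher with estradiol in testis-line liver and none lower (median 0.19), against 1.15% called higher over all tested probes. Cenpa, a centromere histone, rose by 0.50 ± 0.11 (adjusted p = 0.00347 in limma), a call lost with slide as a fixed block. Cdk1, the kinase that drives entry into mitosis, was detected in 6 of 10 estradiol arrays, at 4.89 to 5.92 over all 10, and in none of the blank arrays, at 4.57 to 5.23. Cdc20, an activator of the anaphase complex, was detected in 4 estradiol arrays and no blank array, so no fold is given for either. All 3 calls were lost under median centring. That of Cdc20 was also lost without background correction, with the larger offset, without the filter and without any of 15 arrays in turn. Among 34 probes of stress and unfolded protein genes Chac1, a glutathione-degrading enzyme, rose by 1.21 ± 0.32 (adjusted p = 0.0253), a call lost under both slide blocks, median centring, no background correction, testing without the filter and leaving out any of 5 arrays in turn. None of 24 probes of iron handling, 34 of glucose and insulin genes or 40 of urea and amino acid genes passed.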
